A study of Homo sapiens with 26 samples.

Results

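TF-1 is an established human erythroleukemia cell line that grows on the cytokine GM-CSF. RNA sequencing was used to ask what azacytidine does to gene expression in TF-1 clones that lack TET2, which oxidises methylated cytosines. The libraries compared here are those of the TET2-/- (KO) clones F4 and A12 harvested 72 h after the first dose, which are 5 of the 26 libraries of the series. They were chosen by clone, treatment, time and sequencing quality. The treated group holds 1 library of F4 and 1 of A12, both of batch 1, from cells given 200 nM 5-azacytidine (Aza) in DMSO on each of 3 days. The vehicle group holds 3 libraries from cells given DMSO alone on the same days. These are A12 of batch 1, A12 of batch 2 and F4 of batch 2. The batch 1 library of F4 in DMSO at 72 h is labelled as failing sequencing quality control and was left out, so F4 has a vehicle library of another batch only. The series design counts the clones as biological replicates. Each is a single clone of 1 line, and the labels do not say that libraries of a clone came from separate cultures. The p-values below therefore measure the spread between these libraries, which may be technical. The other KO libraries (15 passed in all) gave the spread between libraries. Among the 15 are libraries of F4 and A12 labelled pre-treatment (batch 1) and time 0 in DMSO (batch 2), beside those at 72 h and 264 h. The TET2 wild-type (WT) clones A7 and C4 at 72 h and the KO clones at 264 h were used as comparisons.

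Azacytidine is a cytidine analogue that cells phosphorylate and build into RNA and, after reduction, into DNA. In DNA it binds DNA methyltransferases covalently, and these are then degraded, so that methylation is lost as cells replicate. Genes silenced by promoter methylation can be expressed again after such loss, and in blood progenitors the drug is known to release genes of maturing cells. TF-1 cells carry features of the erythroid, megakaryocyte and mast cell lineages.

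Promoters are printed for 4 coding genes that ranked high by their smallest difference over the 3 pairs of treated and vehicle libraries, and they differed in their content of CG, the dinucleotide at which DNA is methylated. They are shown because methylated CG is the substrate of TET2 and the mark that Aza removes. RefSeq (GRCh38.p14) gave the 250 bases before the start of CEBPE and HEMGN, which rose, and of DIO2 and COL23A1, which fell. PRG2, which ranked between CEBPE and HEMGN, has no entry. Each is printed 5′ to 3′ in the sense of the gene, with each CG in capitals.
CEBPE (chr14:23119256-23119505, minus strand): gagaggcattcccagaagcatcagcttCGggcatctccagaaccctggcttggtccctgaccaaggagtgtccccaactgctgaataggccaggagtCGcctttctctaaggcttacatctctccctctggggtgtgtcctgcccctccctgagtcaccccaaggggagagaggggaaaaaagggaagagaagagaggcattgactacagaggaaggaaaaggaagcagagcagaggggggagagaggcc
HEMGN (chr9:97944853-97945102, minus strand): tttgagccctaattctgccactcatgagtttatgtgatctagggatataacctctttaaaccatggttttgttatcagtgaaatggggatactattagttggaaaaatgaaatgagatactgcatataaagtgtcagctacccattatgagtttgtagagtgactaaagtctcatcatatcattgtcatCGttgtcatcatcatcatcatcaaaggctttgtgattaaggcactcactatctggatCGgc
DIO2 (chr14:80211505-80211754, minus strand): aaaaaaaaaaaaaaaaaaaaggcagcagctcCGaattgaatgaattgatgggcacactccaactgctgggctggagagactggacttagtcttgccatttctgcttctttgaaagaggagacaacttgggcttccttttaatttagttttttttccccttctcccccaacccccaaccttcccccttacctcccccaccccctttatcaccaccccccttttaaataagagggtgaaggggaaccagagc
COL23A1 (chr5:178590394-178590643, minus strand): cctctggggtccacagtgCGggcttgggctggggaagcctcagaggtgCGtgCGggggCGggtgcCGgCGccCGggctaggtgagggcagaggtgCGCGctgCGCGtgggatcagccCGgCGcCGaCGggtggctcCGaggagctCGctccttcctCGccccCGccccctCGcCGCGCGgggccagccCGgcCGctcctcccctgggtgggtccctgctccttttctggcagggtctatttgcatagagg
The CEBPE and HEMGN windows hold 2 CG each, and 5.31% of 10720 promoters of coding genes tested hold as few. The DIO2 window holds 1 CG (3.20% hold as few) and the COL23A1 window 25 (68.2% hold as few). A GATA motif, TGATAA, is present 1 time on either strand in HEMGN and in DIO2, and an AP-1 motif, TGANTCA, 1 time in CEBPE. Of all 27305 promoters in the table, taken as 300 bases around the start, 7.76% hold TGATAA and 7.76% hold TGANTCA. Among the 10720 promoters of coding genes tested, taken the same way, the shares are 3.80% and 4.76%. Methylation was not measured in these libraries, and a match of letters is a description of the sequence. Among genes that agreed in all pairs and were called, the table held a promoter for 137 of 196 coding rises and 61 of 81 coding falls. Promoters of the rises and falls were not compared as sets, because too few of the genes had an entry.

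The 5 libraries held 24992192 to 31848758 counts, and 25668 to 26653 of 57773 genes had a count in each. A count of 3 corresponded to 0.0942 to 0.12 counts per 1e6 counts (CPM), and mitochondrial genes took 6.51% to 7.92% of counts. Of the genes, 17900 passed the filter on low counts. As a check of the labelled line, a list of 20 erythroid regulators summed to 4019 to 6217 CPM, and the 14 genes of a lymphoid list to 114 to 162 CPM. Of the lymphoid genes 7 passed the filter, and 1, the B cell marker MS4A1, had no count in any of the 5 libraries. The batch moved many genes by small amounts. In edgeR's quasi-likelihood test, 6416 genes (35.8%) were called for batch at a Benjamini-Hochberg adjusted p under 0.05, of which 313 differed at least 2-fold. The A12 vehicle libraries of the same treatment and time, batch 2 against batch 1, differed at least 2-fold at 368 genes up (2.06%) and 296 down (1.65%). Both Aza libraries are of batch 1 and all but 1 of the vehicle libraries are of batch 2, so the pair of A12 libraries within batch 1 is the one in which batch and treatment are not mixed.

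TET2 RNA, counted over all exons of the gene, does not check the knockout. It was at 27 CPM in F4 and 33.4 CPM in A12 with Aza, and at 25.1 CPM in F4, 45.8 CPM in A12 of batch 1 and 37.6 CPM in A12 of batch 2 with DMSO. The groups overlapped and clone A12 was above clone F4 in both. The fitted log2 difference of -0.38 (SE 0.09, edgeR adjusted p = 0.00147) lost its call without the A12 Aza library (adjusted p = 0.0719) and turned to 0.0201 with the failed library included. TET2 was also called for batch (batch 2 minus batch 1, log2 -0.33).

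The enzymes that Aza traps changed little in RNA. DNMT1, the maintenance methyltransferase, was at 423 and 428 CPM in F4 and A12 with Aza, and at 522 CPM in F4, 459 CPM in A12 of batch 1 and 508 CPM in A12 of batch 2 with DMSO. Its log2 difference was -0.23 (SE 0.07, edgeR adjusted p = 0.0160) and was not called without the F4 Aza library (adjusted p = 0.152) or the A12 Aza library (0.0542). DNMT3A, a de novo methyltransferase, was at 15.5 and 17.1 CPM with Aza and at 17.8 to 22.6 CPM with DMSO. Its difference (log2 -0.32, SE 0.11, adjusted p = 0.0323) was likewise lost without F4 Aza (0.237), A12 Aza (0.0561) or F4 DMSO (0.115). DNMT3B, the other de novo enzyme, was at 93.3 CPM in F4 and 125 CPM in A12 with Aza, and at 76.9 to 91.3 CPM with DMSO (log2 0.42, SE 0.08, adjusted p = 0.000126). It lost its call in the fit with no clone term, at log2 0.34. DNMT1 and DNMT3A turned to 0.0312 and 0.0277 with the failed library. The GM-CSF receptor subunit CSF2RB rose from 260, 276 and 249 CPM in F4, A12 of batch 1 and A12 of batch 2 to 377 CPM in F4 and 395 CPM in A12 (log2 0.62, SE 0.07, adjusted p = 1.47e-07). The other subunit, CSF2RA, was listed at 0 in all 5 libraries, as was its neighbour IL3RA. Both are annotated on both sex chromosomes, and of the 47 genes so annotated 3 had a count in any of the 5 libraries, so a listed 0 there says nothing of expression.

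Each clone was first set against each of its vehicle libraries, as a difference of log2 CPM with no test. F4 against its batch 2 vehicle had 749 genes at least 2-fold up (4.18%) and 778 at least 2-fold down (4.35%). A12 had 859 up (4.8%) and 594 down (3.32%) against its batch 1 vehicle, and 831 up (4.64%) and 745 down (4.16%) against its batch 2 vehicle. The F4 pair and the A12 pair of batch 1 share no library. They had 312 rises in common, which is 41.7% of those of F4 and 36.3% of those of A12. They had 157 falls in common, 20.2% of those of F4 and 26.4% of those of A12. Against the failed F4 vehicle, by contrast, the F4 Aza library had 2221 genes up (12.4%) and 1838 down (10.3%) by at least 2-fold.

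In all 3 pairs, 244 genes were at least 2-fold up (1.36% of those tested) and 130 at least 2-fold down (0.726%). Both A12 pairs use the same A12 Aza library, so the 3 pairs are not independent and rest on 2 treated libraries. Of the 244 rises 215 are protein-coding, and of the 130 falls 88. At 15 of the 374 the A12 vehicle libraries themselves differed 2-fold or more. With 1 vehicle library left out, and so 2 pairs, the total of 374 was 807 without that of F4 and 570 without that of A12 of batch 1. Another 15 genes moved at least 2-fold in F4 and at least 2-fold the other way in both A12 pairs, and 0 of them were coding genes with a mean of 1 CPM or more. The plot of F4 differences against A12 differences shows the agreeing genes in the upper right and lower left corners.

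**Figure D1:**
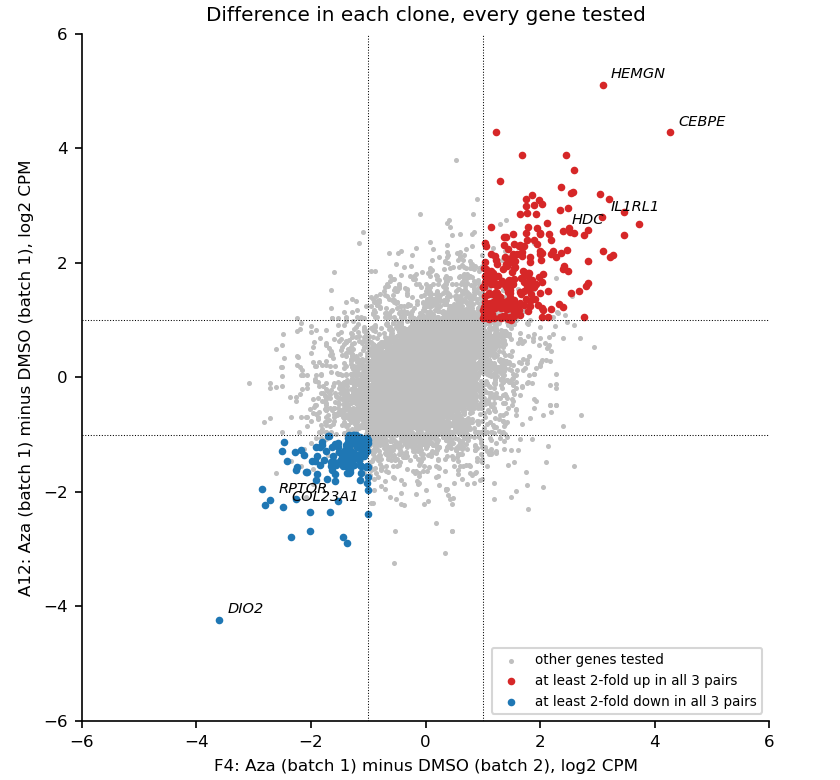
Difference in log2 CPM between Aza and DMSO for each of 17900 genes, in F4 (x axis, vehicle of batch 2) and in A12 (y axis, vehicle of batch 1), each point a gene. Red and blue points are the 244 genes up and 130 genes down by at least 2-fold in all 3 pairs, and dotted lines mark a 2-fold difference.

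In the fit of the 15 KO libraries with terms for clone, batch and condition, 4361 of 17900 genes (24.4%) were called between Aza and DMSO at 72 h. Of these, 2306 rose (12.9%) and 2055 fell (11.5%), and 529 of the rises and 296 of the falls were at least 2-fold. The sign was the same in all 3 pairs for 3589 of the called genes (82.3%), against 9539 of all genes tested (53.3%). The fit holds the libraries of these pairs, so a higher share among called genes was built in. The other 772 called genes had a pair of the opposite sign. Among the genes that agreed at 2-fold in all pairs, 224 rises and 112 falls were called, and 62 of the 374 were also called for batch. The number of calls fell to 2722 without the A12 Aza library, to 2606 without the batch term and to 1628 with the failed library.

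The rises that were largest in their weakest pair were, in order, CEBPE, PRG2, HEMGN and PRR9. Among the first 12 are the granulocyte and mast cell genes CEBPE, PRG2, IL1RL1 and HDC, each higher in both clones by log2 2.40 or more, and the red cell genes HEMGN, AQP1 and PKLR. The 12 rises described here are the called, agreeing coding genes with a mean of at least 1 CPM whose smallest pair difference was largest. The 12 falls were chosen the same way. No call on these 24 genes was lost when any 1 of the 5 libraries was left out.

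CEBPE encodes C/EBP epsilon, a transcription factor of late granulocyte and eosinophil maturation (chromosome 14, 23586513 to 23588825 in hg19, the build of the counts). It was at 8.03 CPM in F4 and 19.1 CPM in A12 with Aza, and at 0.352 CPM in F4, 0.915 CPM in A12 of batch 1 and 1.07 CPM in A12 of batch 2 with DMSO. The groups did not overlap, and the rise was alike in the 3 pairs although A12 stood above F4 in either treatment. The log2 differences were 4.27 in F4 and 4.28 and 4.07 in A12, and the fit gave 4.56 (SE 0.26, edgeR adjusted p = 1.38e-13).

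PRG2 encodes the major basic protein of eosinophil granules. It was at 1.15 CPM in F4 and 3.46 CPM in A12 with Aza, and at 0.0640 CPM in F4, 0.339 CPM in A12 of batch 1 and 0.278 CPM in A12 of batch 2 with DMSO. F4 rested on few reads, 30 counts against 2, a ratio of 18.0 with an exact 95% interval of 4.57 to 156 that covers counting error only. The fit gave log2 3.27 (SE 0.50, edgeR adjusted p = 1.91e-05). Of its exon bases, 43.0% are shared with another annotated gene on the same strand, so its count is uncertain.

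HDC makes histamine from histidine and is a marker of mast cells and basophils (chromosome 15, 50534144 to 50558223, hg19). It was at 20.8 CPM in F4 and 29.7 CPM in A12 with Aza, and at 3.87 CPM in F4, 4.98 CPM in A12 of batch 1 and 4.68 CPM in A12 of batch 2 with DMSO. The vehicle libraries of both clones and both batches lay close together and far below the Aza libraries. Its pair differences were 2.40, 2.56 and 2.65, and the fit gave log2 2.66 (SE 0.17, edgeR adjusted p = 2.07e-12).

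IL1RL1 is the receptor for interleukin-33 on mast cells. It was at 7.60 CPM in F4 and 16.2 CPM in A12 with Aza, and at 0.832 CPM in F4, 2.27 CPM in A12 of batch 1 and 1.55 CPM in A12 of batch 2 with DMSO. The groups did not overlap (log2 2.76, SE 0.24, edgeR adjusted p = 4.84e-10), but the call was lost in the fit with no clone term, at log2 2.46.

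HEMGN encodes hemogen, a nuclear protein of erythroid and other hematopoietic cells (chromosome 9, 100689073 to 100707138, hg19). It was at 6.80 CPM in F4 and 6.99 CPM in A12 with Aza, and at 0.736 CPM in F4, 0.136 CPM in A12 of batch 1 and 0.119 CPM in A12 of batch 2 with DMSO. The Aza libraries were level while the A12 vehicle libraries were near the floor of 3 counts, so the pair differences were 3.09 in F4 and 5.11 and 5.23 in A12. Against the batch 2 vehicle, A12 had 198 counts against 3, a ratio of 58.7 with an exact 95% interval of 19.8 to 287. The fit gave log2 4.25 (SE 0.66, edgeR adjusted p = 0.000402).

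PKLR encodes the pyruvate kinase of red cells and liver. It was at 4.15 CPM in F4 and 5.44 CPM in A12 with Aza, and at 0.704 CPM in F4, 0.305 CPM in A12 of batch 1 and 0.436 CPM in A12 of batch 2 with DMSO. The groups did not overlap (log2 3.51, SE 0.41, edgeR adjusted p = 2.83e-07).

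AQP1 is the water channel of the red cell membrane. It was at 18.1 CPM in F4 and 10.2 CPM in A12 with Aza, and at 2.98 CPM in F4, 1.02 CPM in A12 of batch 1 and 1.31 CPM in A12 of batch 2 with DMSO. F4 was the higher clone in both treatments, and the groups did not overlap (log2 2.71, SE 0.28, edgeR adjusted p = 1.6e-07). Other annotated genes share 39.2% of its exon bases, so that its reads cannot all be assigned.

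The other rises in this set are of other kinds. TRIM29, a tripartite motif protein, was at 17.0 CPM in F4 and 17.1 CPM in A12 with Aza, and at 2.91 CPM in F4, 2.88 CPM in A12 of batch 1 and 2.62 CPM in A12 of batch 2 with DMSO. The libraries of each treatment were nearly level (log2 2.66, SE 0.17, edgeR adjusted p = 1.59e-12). ADAMTS4, a secreted protease that cleaves aggrecan, was at 5.34 CPM in F4 and 7.94 CPM in A12 with Aza and at 0.832 to 1.43 CPM with DMSO (log2 2.73, SE 0.27, adjusted p = 8.1e-09). SIGLEC11, a sialic acid-binding lectin, was at 3.00 CPM in F4 and 2.82 CPM in A12 with Aza and at 0.305 to 0.480 CPM with DMSO (log2 3.01, adjusted p = 1.09e-06), and shares 12.7% of its exon bases with other annotated genes. SV2A, a synaptic vesicle protein, was at 2.00 and 2.19 CPM with Aza and at 0.357 to 0.441 CPM with DMSO (log2 2.07, adjusted p = 0.000396). The Aza libraries of both clones lay above all vehicle libraries for these genes. PRR9, a proline-rich protein of the epidermal gene cluster, was the exception in that its groups overlapped. It was at 0.691 CPM in F4 and 13.5 CPM in A12 with Aza, and at 0 in F4, 1.76 CPM in A12 of batch 1 and 1.75 CPM in A12 of batch 2 with DMSO. F4 had 18 counts against 0, at least 7.20-fold higher taking 3 counts as the floor of that library. The fit gave log2 3.04 (SE 0.33, adjusted p = 5.24e-08), and the call was lost with no clone term, at 2.43.

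**Figure D2:**
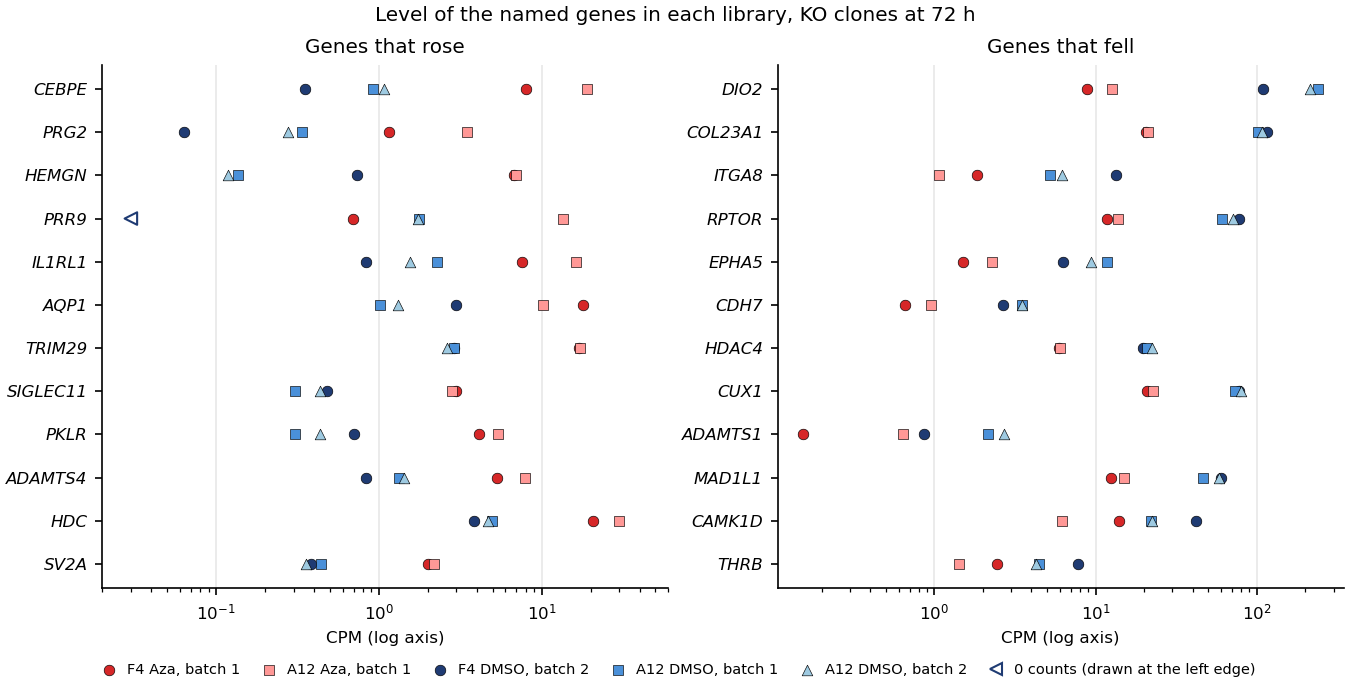
Level in CPM (log axis) of the 12 rises (left) and 12 falls (right) in each of the 5 libraries, with colour for treatment and library and marker shape for clone and batch. Red points are Aza and blue points DMSO: for HDC the Aza libraries are at 20.8 and 29.7 CPM and the vehicle libraries between 3.87 and 4.98 CPM.

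The falls were led by DIO2, the largest of the named falls in every pair, and by genes spread over long stretches of the genome. DIO2 encodes the deiodinase that turns thyroxine into the active thyroid hormone (chromosome 14, 80663873 to 80854100, hg19). It was at 8.87 CPM in F4 and 12.7 CPM in A12 with Aza, and at 109 CPM in F4, 240 CPM in A12 of batch 1 and 215 CPM in A12 of batch 2 with DMSO. The pair differences were -3.61, -4.23 and -4.07, and the fit gave log2 -3.97 (SE 0.32, edgeR adjusted p = 6.27e-05). THRB, a receptor for thyroid hormone, was at 2.46 CPM in F4 and 1.41 CPM in A12 with Aza, and at 7.74 CPM in F4, 4.47 CPM in A12 of batch 1 and 4.28 CPM in A12 of batch 2 with DMSO. Its groups did not overlap (log2 -1.66, SE 0.23, adjusted p = 5.97e-06), and the call was lost with no clone term, at -1.32.

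COL23A1, a transmembrane collagen (chromosome 5, 177664619 to 178017556, hg19), fell to nearly the same level in both clones. It was at 20.5 CPM in F4 and 21.2 CPM in A12 with Aza, and at 116 CPM in F4, 102 CPM in A12 of batch 1 and 108 CPM in A12 of batch 2 with DMSO (log2 -2.24, SE 0.09, edgeR adjusted p = 1.71e-17). ITGA8, an integrin chain that binds matrix proteins, was at 1.84 CPM in F4 and 1.06 CPM in A12 with Aza, and at 13.3 CPM in F4, 5.22 CPM in A12 of batch 1 and 6.15 CPM in A12 of batch 2 with DMSO. F4 was above A12 in both treatments and the groups did not overlap (log2 -2.64, SE 0.19, adjusted p = 1.39e-11); with no clone term the call was lost, at -2.28. ADAMTS1, a secreted protease, was at 0.154 CPM in F4 and 0.635 CPM in A12 with Aza and at 0.864 to 2.70 CPM with DMSO (log2 -1.67, SE 0.36, adjusted p = 0.000758). Its call was lost with no clone term, at -2.03, and with the failed library, at -1.37. The adhesion molecules EPHA5, an ephrin receptor, and CDH7, a cadherin, fell by 2.34 and by 1.87 on the log2 scale.

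RPTOR encodes raptor, the scaffold through which the growth kinase complex mTORC1 binds its substrates (chromosome 17, 78518619 to 78940171, hg19). It was at 11.8 CPM in F4 and 13.8 CPM in A12 with Aza, and at 77.5 CPM in F4, 60.7 CPM in A12 of batch 1 and 71.4 CPM in A12 of batch 2 with DMSO. The fall was larger than the spread between the vehicle libraries in either clone (log2 -2.31, SE 0.09, edgeR adjusted p = 1.71e-17). HDAC4, a histone deacetylase, was at 5.91 CPM in F4 and 6.04 CPM in A12 with Aza, and at 19.6 CPM in F4, 20.7 CPM in A12 of batch 1 and 22.5 CPM in A12 of batch 2 with DMSO (log2 -1.71, SE 0.11, adjusted p = 2.99e-12). CUX1, a homeobox transcription factor, was at 20.8 CPM in F4 and 22.6 CPM in A12 with Aza, and at 77.4 CPM in F4, 73.1 CPM in A12 of batch 1 and 80.3 CPM in A12 of batch 2 with DMSO (log2 -1.85, SE 0.09, adjusted p = 6.5e-15). For both genes the clones were level within each treatment. MAD1L1, of the spindle checkpoint, fell by 1.65 on the log2 scale and is also called for batch (batch 2 minus batch 1, 0.48). So are the falls ADAMTS1 (0.60), RPTOR (0.19), COL23A1 (0.18) and EPHA5 (-0.25), and the rise IL1RL1 (-0.63). CAMK1D, a calmodulin-dependent kinase, fell by 1.66, and with no clone term its call was lost, at -1.35.

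Of the 12 falls, ADAMTS1 spans 9.66 kb from first to last exon and each of the others spans 131 kb or more. This held more widely. The coding genes that agreed in falling had a median span of 190.5 kb, and 61.4% of them were over 100 kb, against 31.6 kb and 18.8% for all 13255 coding genes tested. The coding genes that agreed in rising had a median span of 23.6 kb. By bins of span, 4.04% of 2622 genes under 10 kb were called down and 23.6% called up, while 48% of 450 genes over 300 kb were called down and 4% up. The median log2 difference in the fit went from 0.12 in the shortest bin to 0.09, -0.01, -0.19 and -0.45 in the longest. In the A12 pair within batch 1 these medians were 0.13, 0.11, -0.01, -0.18 and -0.37. In the F4 pair they were -0.16, 0.01, 0.08, -0.03 and -0.28, so that there the shortest genes were also low. Between the A12 vehicle libraries the medians moved too, from 0.17 in the shortest bin to -0.09 in the longest, and their part in the differences was not tested. The WT clones at 72 h had -0.41 in the longest bin and the KO clones at 264 h had -0.05.

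**Figure D3:**
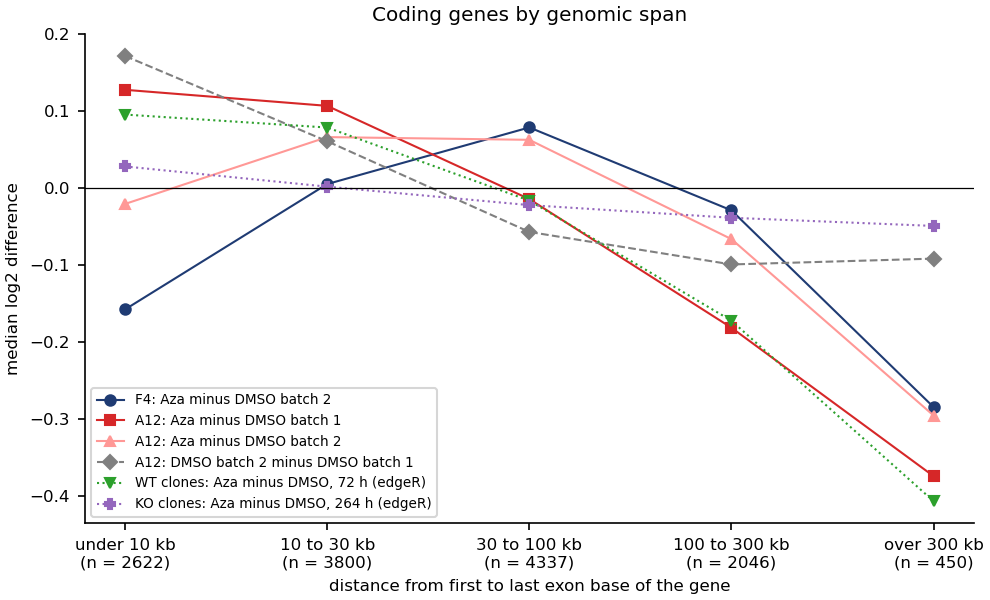
Median log2 difference of coding genes in 5 bins of genomic span (x axis, distance from first to last exon base), for each pair of libraries, for the A12 vehicle libraries against each other, and for the edgeR fits of WT clones at 72 h and KO clones at 264 h. In the bin over 300 kb (450 genes) the 3 Aza pairs lie at -0.28, -0.37 and -0.30 and the vehicle libraries at -0.09.

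Of 20 erythroid regulators tested, 14 were called up and 4 down. The median log2 difference was 0.47 (0.23 in the F4 pair and 0.57 and 0.49 in the A12 pairs). Over all genes, 12.9% were called up and 11.5% down, with a median of -0.01. These values over all genes are the background for each list described below. GFI1B, a repressor needed for red cell and platelet development, was at 71.5 CPM in F4 and 72.6 CPM in A12 with Aza, and at 38.3 CPM in F4, 29.3 CPM in A12 of batch 1 and 37.1 CPM in A12 of batch 2 with DMSO. It rose in both clones (log2 1.36, SE 0.09, edgeR adjusted p = 1.9e-11). KLF1, the activator of adult globin and red cell genes, was at 142 CPM in F4 and 165 CPM in A12 with Aza, and at 115 CPM in F4, 59.2 CPM in A12 of batch 1 and 76.9 CPM in A12 of batch 2 with DMSO. Its groups did not overlap (log2 1.28, SE 0.13, adjusted p = 1.44e-05), but the pair difference was 0.30 in F4 against 1.48 and 1.10 in A12. KLF1 was also called for batch (batch 2 minus batch 1, log2 0.57). EPOR, the erythropoietin receptor, rose by log2 1.01. CBFA2T3, a corepressor of GATA1 target genes, went the other way, at 47.9 CPM in F4 and 48.0 CPM in A12 with Aza and at 113 to 140 CPM with DMSO (log2 -1.24, SE 0.08, adjusted p = 2.07e-12). In bulk RNA, fewer or more cells of a type and less or more RNA per cell cannot be told apart.

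Among 24 genes of the red cell membrane, 14 were called up and 3 down, with a median log2 difference of 0.66 in the fit and 0.34, 0.71 and 0.60 in the pairs. The median was 0.34 without the A12 Aza library and 0.39 without the A12 vehicle library of batch 1. EPB42, which links band 3 to the membrane skeleton, was at 26.0 CPM in F4 and 28.8 CPM in A12 with Aza, and at 7.84 CPM in F4, 5.83 CPM in A12 of batch 1 and 4.88 CPM in A12 of batch 2 with DMSO (log2 2.22, SE 0.15, edgeR adjusted p = 2.63e-12). GYPB, a glycophorin, rose by log2 1.76, a call lost with no clone term, and its reads may be shared with near copies of the gene. Of 17 red cell enzymes and nuclear proteins, 10 were called up and 0 down, with a median of 0.45 in the fit but 0.08 in the F4 pair against 0.60 and 0.44 in the A12 pairs. CA1, a carbonic anhydrase of red cells, was at 399 CPM in F4 and 662 CPM in A12 with Aza, and at 213 CPM in F4, 234 CPM in A12 of batch 1 and 286 CPM in A12 of batch 2 with DMSO (log2 1.29, SE 0.11, adjusted p = 2.19e-07). Of 20 genes of heme and iron handling, 12 were called up and 1 down, with a median of 0.28 in the fit and 0.06, 0.31 and 0.18 in the pairs. They summed to 3732 CPM in F4 with Aza against 3902 CPM with DMSO, and to 4206 CPM in A12 with Aza against 3218 CPM in batch 1 and 4091 CPM in batch 2 with DMSO. ALAS2, the first enzyme of heme synthesis in red cells, was at 7.34 CPM in F4 and 8.65 CPM in A12 with Aza, and at 2.46 CPM in F4, 1.66 CPM in A12 of batch 1 and 2.10 CPM in A12 of batch 2 with DMSO. Its groups did not overlap (log2 1.85, SE 0.31, adjusted p = 0.000311). SLC25A37, the mitochondrial iron importer, rose by log2 1.04. Without the batch term, 6 of the heme and iron genes were called up.

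The hemoglobin genes varied between clones and between vehicle libraries. The 11 genes of the list summed to 236 CPM in F4 and 207 CPM in A12 with Aza, and to 248 CPM in F4, 80.0 CPM in A12 of batch 1 and 131 CPM in A12 of batch 2 with DMSO, so that the F4 vehicle library was the highest of all. Of 10 tested, 6 were called up and 0 down, with a median of 1.18 in the fit and medians of 0.31 in the F4 pair and 1.67 and 1.21 in the A12 pairs. The count was 2 without the A12 vehicle library of batch 1, 3 without the A12 Aza library, 9 without the F4 vehicle library and 0 with the failed library. HBA2, an alpha-globin gene, was at 75 CPM in F4 and 83.9 CPM in A12 with Aza, and at 109 CPM in F4, 28.5 CPM in A12 of batch 1 and 59.0 CPM in A12 of batch 2 with DMSO. Its pair differences were -0.54, 1.56 and 0.51. Its call (log2 1.07, SE 0.27, edgeR adjusted p = 0.0255) was lost without the A12 Aza library (0.0624) or the A12 vehicle library of batch 1 (0.154). HBZ, the embryonic alpha-like globin, was at 5.91 CPM in F4 and 6.64 CPM in A12 with Aza and at 4.22 CPM in F4, 1.70 CPM in A12 of batch 1 and 3.17 CPM in A12 of batch 2 with DMSO (log2 1.61, SE 0.23, adjusted p = 4.78e-06). The HBZ call was lost with the failed library, at log2 0.49, and with the WT libraries in the fit. Alpha-globin genes are near copies of each other, and 27.2% of HBZ exon bases are shared with HBM, so reads may be split between them.

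Of 20 genes of mast cells, basophils and eosinophils tested, 10 were called up and 2 down (median 1.09, and 0.43, 0.76 and 1.08 in the 3 pairs). The summed level of the 23 listed was 940 and 950 CPM with Aza and 1030 to 1204 CPM with DMSO, and none was at 0 in all 5 libraries. PRG3, a homologue of the major basic protein, was at 1.27 CPM in F4 and 2.47 CPM in A12 with Aza, and at 0.160 CPM in F4, 0.848 CPM in A12 of batch 1 and 0.674 CPM in A12 of batch 2 with DMSO (log2 2.10, SE 0.40, edgeR adjusted p = 0.000275). It lost its call with no clone term and with the failed library. KIT, the receptor for stem cell factor, was at 44.5 CPM in F4 and 35.3 CPM in A12 with Aza, and at 18.4 CPM in F4, 10.3 CPM in A12 of batch 1 and 10.8 CPM in A12 of batch 2 with DMSO (log2 1.5, SE 0.12, adjusted p = 3.09e-10). Its groups did not overlap, and the call was lost with no clone term. FCER1A, a chain of the IgE receptor, fell from 110, 141 and 142 CPM in F4, A12 of batch 1 and A12 of batch 2 to 87.7 CPM in F4 and 82.2 CPM in A12 (log2 -0.61, SE 0.15, adjusted p = 0.0106). Its call was lost without the A12 Aza library (0.102) or the A12 vehicle library of batch 1 (0.144).

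Of 16 neutrophil and monocyte genes tested, 7 were called up and 1 down, with a median of 0.62 in the fit but 0.08, 0.30 and 0.34 in the pairs. The count of rises was 3 without the A12 Aza library. The 23 listed summed to 402 and 437 CPM with Aza and 421 to 496 CPM with DMSO, and the granule protease ELANE was too low to be tested. CSF1R, the receptor for M-CSF, was at 4.65 CPM in F4 and 3.00 CPM in A12 with Aza, and at 0.608 CPM in F4, 0.949 CPM in A12 of batch 1 and 0.555 CPM in A12 of batch 2 with DMSO (log2 2.22, SE 0.34, edgeR adjusted p = 1.05e-05). ITGAM, the alpha chain of the Mac-1 integrin, fell from 81.2, 68.8 and 81.1 CPM in F4, A12 of batch 1 and A12 of batch 2 to 53.1 CPM in F4 and 37.0 CPM in A12 (log2 -0.82, SE 0.12, adjusted p = 7.34e-05). Of 15 megakaryocyte genes, 7 were called up and 0 down (median 0.66, and 0.38 without the A12 vehicle library of batch 1), among them the platelet adhesion molecule SELP, by log2 1.34, a call lost with no clone term. Their list summed to 1509 and 1539 CPM with Aza and 1170 to 1364 CPM with DMSO, and GP1BB was listed at 0 in all 5 libraries. SEPTIN5 shares 100% of the exon bases of GP1BB on the same strand, so that its reads cannot be assigned and the 0 says nothing of its expression. Of 7 lymphoid genes tested, 0 were called by edgeR, 0 by DESeq2 and 1 had an unadjusted p under 0.05. Of 11 stem and progenitor genes, 2 rose (18.2%) and 1 fell (9.09%), near the 12.9% and 11.5% over all genes. LMO4, a LIM protein, was at 116 CPM in F4 and 149 CPM in A12 with Aza, and at 60.6 CPM in F4, 49.6 CPM in A12 of batch 1 and 54.1 CPM in A12 of batch 2 with DMSO (log2 1.40, SE 0.11, adjusted p = 2.81e-08). HHEX, a homeobox factor of blood progenitors, rose by log2 0.91.

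Of 10 markers of cells outside blood tested, 5 were called up and 0 down, 6 were positive in all 3 pairs, and 1 was called up with no clone term. The median was 0.84 in the fit and 0.47, 0.82 and 0.57 in the pairs. In the fit without the A12 Aza library it was 0.49. The 14 matched genes summed to 270 and 292 CPM with Aza and 218 to 284 CPM with DMSO. KDR, a receptor for VEGF on endothelium and early progenitors, was at 64.5 CPM in F4 and 46.0 CPM in A12 with Aza, and at 28.2 CPM in F4, 13.7 CPM in A12 of batch 1 and 15.3 CPM in A12 of batch 2 with DMSO (log2 1.70, SE 0.12, edgeR adjusted p = 1.59e-10). CDH5, the cadherin of endothelial junctions, was at 5.30 CPM in F4 and 2.44 CPM in A12 with Aza, and at 1.28 CPM in F4, 0.373 CPM in A12 of batch 1 and 0.278 CPM in A12 of batch 2 with DMSO (log2 2.40, SE 0.36, adjusted p = 1.07e-05). In both genes F4 was the higher clone in either treatment, the groups did not overlap, and the call was lost with no clone term. The part that cells of other types have in any of these results was not tested.

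In the integrated stress response, 14 of 24 genes were called up and 2 down. The median was 0.33 in the fit but 0.17 in the F4 pair and 0.29 and 0.13 in the A12 pairs. ATF3, a stress-induced transcription factor, was at 5.49 CPM in F4 and 4.02 CPM in A12 with Aza, and at 1.47 CPM in F4, 1.22 CPM in A12 of batch 1 and 0.873 CPM in A12 of batch 2 with DMSO (log2 2.34, SE 0.29, edgeR adjusted p = 4.02e-07). PPP1R15A, which directs dephosphorylation of eIF2 alpha, rose by log2 0.87. Of 20 aminoacyl-tRNA synthetases, many of them ATF4 targets, 1 was called up and 5 down, MARS1 among them by -0.35. The falls were 3 without the F4 Aza library and 2 without the A12 Aza library. Of 23 immediate early genes, 13 were called up and 1 down, but 4 and 1 without the batch term. JUN, of the AP-1 factor, was at 68.0 CPM in F4 and 72.2 CPM in A12 with Aza, and at 26.1 CPM in F4, 34.2 CPM in A12 of batch 1 and 31.1 CPM in A12 of batch 2 with DMSO (log2 1.28, SE 0.10, adjusted p = 1.73e-10). DUSP6, a phosphatase that turns off ERK, fell by 1.19 on the log2 scale. Of 27 p53 targets, 9 were called up and 1 down, and 4 up without the batch term. BTG2, an antiproliferative p53 target, was at 6.22 CPM in F4 and 6.64 CPM in A12 with Aza, and at 2.43 CPM in F4, 2.03 CPM in A12 of batch 1 and 2.34 CPM in A12 of batch 2 with DMSO (log2 1.85, SE 0.19, adjusted p = 1.55e-08). Of 18 BCL2 family genes, 6 were called up and 2 down. BMF, a BH3-only killer protein, was at 1.08 CPM in F4 and 0.565 CPM in A12 with Aza, and at 0.0640, 0.0678 and 0.0397 CPM with DMSO, where all 3 libraries were under the floor of 3 counts. F4 had 28 counts against 2, a ratio of 16.8 with an exact 95% interval of 4.24 to 146. BMF was called in the fit (adjusted p = 0.000762) but not in batch 1 alone.

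Of 24 genes of cholesterol synthesis, 16 were called up and 0 down. The median was 0.38 in the fit but 0.13 in the F4 pair and 0.27 and 0.19 in the A12 pairs. In all 3 pairs 14 of the genes were positive and 4 negative. Their median for batch (batch 2 minus batch 1) was 0.34. The counts called up and down were 9 and 0 without the F4 Aza library and likewise without the batch term. SQLE, squalene epoxidase, was at 354 CPM in F4 and 292 CPM in A12 with Aza, and at 209 CPM in F4, 172 CPM in A12 of batch 1 and 171 CPM in A12 of batch 2 with DMSO (log2 0.85, SE 0.07, edgeR adjusted p = 1.82e-10). Of 20 glycolysis genes, 4 were called up and 8 down. The falls were 5 without the F4 Aza library, 3 without the A12 Aza library and 4 without the A12 vehicle library of batch 1. ENO2, an enolase, rose by log2 0.86 and PFKM, a phosphofructokinase, fell by 0.43. Of 29 genes of the mTOR complexes and their regulators, 6 were called up and 5 down. Beside RPTOR, the falls included MAPKAP1, a subunit of mTORC2, at 48.7 and 48.2 CPM with Aza and 86.5 to 91.2 CPM with DMSO (log2 -0.88, SE 0.07, adjusted p = 2.57e-10). FLCN, which signals amino acid supply to mTORC1, rose by log2 0.55. Of 32 G1/S and replication genes, 13 were called up and 1 down, led by E2F1 at 40.9 and 40 CPM with Aza and 21.6 to 31 CPM with DMSO (log2 0.82, SE 0.09, adjusted p = 1.22e-07). Of 28 G2/M genes, 8 were called up and 5 down, the falls being 1 without either Aza library or without the A12 vehicle library of batch 1. Lists of ribosome biogenesis (2 up, 3 down of 27), autophagy and lysosome (5 up, 2 down of 30), heat shock (7 up, 1 down of 20) and cytokine and STAT5 targets (11 up, 3 down of 22) went both ways. Without the A12 Aza library 3 autophagy genes were up, and without either Aza library 1 STAT5 target was down. In the last of these, ID2, an inhibitor of differentiation factor, was at 30.3 CPM in F4 and 37.3 CPM in A12 with Aza and at 8.53 to 10.2 CPM with DMSO (log2 1.68, SE 0.12, adjusted p = 9.64e-12). The shares called in ribosome biogenesis (7.41% up, 11.1% down) and in autophagy and lysosome (16.7% up, 6.67% down) were near those over all genes. Those were 12.9% up and 11.5% down.

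Of 9 germline genes tested, which DNA methylation is known to silence, 3 were called up and 0 down. Of the 23 germline genes listed, 8 had no count in any of the 5 libraries, with Aza or with DMSO. TEX14, a germ cell bridge protein, was at 3.42 CPM in F4 and 5.22 CPM in A12 with Aza, and at 0.928 CPM in F4, 1.76 CPM in A12 of batch 1 and 1.15 CPM in A12 of batch 2 with DMSO (log2 1.69, SE 0.28, edgeR adjusted p = 3.02e-05), and lost its call with no clone term. Of 11 cancer-testis antigens tested, 0 were called by edgeR, 0 by DESeq2 and 2 had an unadjusted p under 0.05. Of the 23 cancer-testis genes matched, 7 had no count in any of the 5 libraries. Why genes of these lists were at 0 was not tested. Of 28 interferon response genes, 12 were called up and 2 down, and 7 up without the F4 Aza library. The median was 0.34 in the fit and 0.14, 0.25 and 0.29 in the pairs. The 33 listed summed to 1188 CPM in F4 and 1086 CPM in A12 with Aza. With DMSO they summed to 1347 CPM in F4, 1156 CPM in A12 of batch 1 and 1283 CPM in A12 of batch 2. OAS3, an oligoadenylate synthetase activated by double-stranded RNA, was at 3.03 CPM in F4 and 2.75 CPM in A12 with Aza, and at 0.704 CPM in F4, 0.542 CPM in A12 of batch 1 and 0.714 CPM in A12 of batch 2 with DMSO (log2 2.13, SE 0.35, adjusted p = 3.16e-05). Of 11 genes of double-stranded RNA sensing, DHX58 rose (log2 1.05) and EIF2AK2 fell (log2 -0.37). Of 20 genes of the DNA methylation machinery, 5 were called up and 5 down, or 3 and 1 without the A12 Aza library and 5 and 3 without that of F4. TET1, of the same family as TET2, was at 10.4 CPM in F4 and 10.2 CPM in A12 with Aza and at 13.9 to 14.8 CPM with DMSO (log2 -0.63, SE 0.12, adjusted p = 0.000287), a call lost in the 5 libraries alone and with the failed library. Of 25 genes of Aza uptake and pyrimidine metabolism, 4 were called up (16%) and 3 down (12%). These shares were near the 12.9% and 11.5% over all genes. UCK1, which phosphorylates the drug, was among the rises (log2 0.47). The falls were 1 without the F4 Aza library or the A12 vehicle library of batch 1. Of 25 polycomb and repressive chromatin genes, 4 were called up (16%) and 3 down (12%), again near the shares over all genes. Without the A12 Aza library 1 polycomb or repressive chromatin gene was called up and 1 down. EHMT1, a histone methyltransferase, had the largest change of this list. It was at 26.9 CPM in F4 and 25.2 CPM in A12 with Aza, and at 73.5 CPM in F4, 64.5 CPM in A12 of batch 1 and 68.0 CPM in A12 of batch 2 with DMSO (log2 -1.32, SE 0.07, adjusted p = 1.16e-13).

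Of 20 genes of axon guidance and neuronal adhesion tested, 0 were called up and 10 down, with a median of -0.60 in the fit and -0.59, -0.53 and -0.35 in the pairs. Without the F4 Aza library the median was -0.38. SLITRK6, a neuronal adhesion protein, was at 1.04 CPM in F4 and 0.988 CPM in A12 with Aza, and at 3.45 CPM in F4, 5.36 CPM in A12 of batch 1 and 2.94 CPM in A12 of batch 2 with DMSO (log2 -2.44, SE 0.24, edgeR adjusted p = 6.97e-09). NLGN1, a neuroligin, was at 8.60 CPM in F4 and 3.85 CPM in A12 with Aza, and at 21.5 CPM in F4, 11.9 CPM in A12 of batch 1 and 12.7 CPM in A12 of batch 2 with DMSO (log2 -1.57, SE 0.14, adjusted p = 6.42e-10). The groups did not overlap for either gene, and the NLGN1 call was lost with no clone term. Integrin and matrix genes went both ways, 7 up and 6 down of 26, with MMP2, a gelatinase, at 14.5 CPM in F4 and 9.99 CPM in A12 with Aza and at 4.48 CPM in F4, 2.24 CPM in A12 of batch 1 and 3.21 CPM in A12 of batch 2 with DMSO (log2 2.09, SE 0.18, adjusted p = 5.78e-10). Of 12 replication-dependent histone genes tested, 1 was called up and 1 down (8.33% each way). Over all genes the shares were 12.9% up and 11.5% down.

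**Figure D4:**
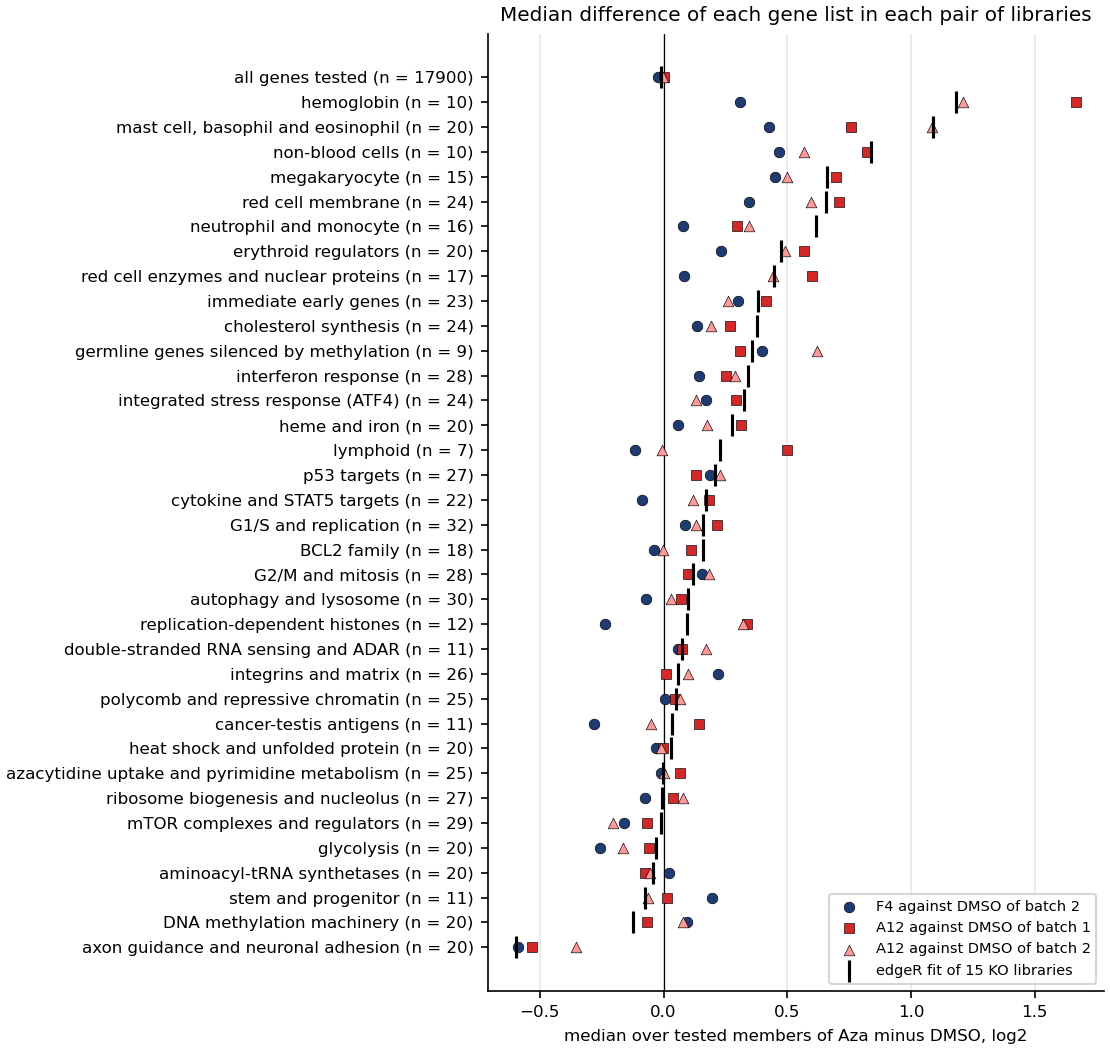
Median log2 difference between Aza and DMSO over the tested members of each of 35 gene lists and over all 17900 genes (top row), in each of the 3 pairs of libraries (coloured markers) and in the edgeR fit (black bars). Hemoglobin genes are at 0.31 in F4 and at 1.67 and 1.21 in A12, while axon guidance genes are between -0.59 and -0.35 in all pairs.

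To ask whether the clones responded differently, a term for F4 with Aza at 72 h was tested in the fit of KO libraries. It sets the F4 minus A12 difference with Aza at 72 h against that difference over all other KO conditions. The 72 h vehicle libraries are only part of those conditions, so fitted values can depart from the pair differences. Of 17900 genes, 940 had an unadjusted p under 0.05, near the share of 0.05 met where no gene differs. TNFRSF25, a death receptor of the TNF family (chromosome 1, 6521211 to 6526255, hg19), was the only gene called of 17900 (0.00559%). It was at 26.6 CPM in F4 and 20.3 CPM in A12 with Aza, and at 25.1 CPM in F4, 6.71 CPM in A12 of batch 1 and 9.40 CPM in A12 of batch 2 with DMSO. The pair differences were 0.08 in F4, across batches, and 1.59 and 1.11 in A12. With the batch term it was called up in each clone, by log2 0.45 in F4 (SE 0.13, edgeR adjusted p = 0.0219) and by 1.53 in A12 (SE 0.13, adjusted p = 3.65e-09), and the difference between clones was -1.08 (SE 0.15, adjusted p = 0.00242). With no batch term the call on this difference was lost. DESeq2 called 6 genes, and 9 were called without the A12 vehicle library of batch 1 and 19 with no filter on low counts. F4 has 1 library a treatment and these are of different batches. Both the size and the spread of its fitted response therefore rest also on the other libraries of the fit.

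The WT clones A7 and C4, with 2 libraries each way at 72 h and all of batch 1, had 4327 of 18090 genes called (23.9%). The response of KO minus that of WT was called for 0 genes by edgeR and 0 by DESeq2. Of 18090 genes, 939 had an unadjusted p under 0.05, likewise near the share of 0.05 met where no gene differs. Without the A12 vehicle library of batch 1, 195 genes were called. Of the agreeing and called KO genes with a WT value, 161 of 222 rises and 78 of 111 falls were called in WT with the same sign. Their median log2 difference was 1.89 in KO and 1.46 in WT for the rises, and -1.57 and -1.23 for the falls. The genes were chosen by their KO values, so smaller medians in WT are partly built in and do not show a weaker response. By gene, CEBPE rose by log2 4.22 in WT, TRIM29 by 2.70, HDC by 2.47 and HEMGN by 2.83, and DIO2, RPTOR and COL23A1 changed by -3.32, -2.11 and -1.90. SIGLEC11 differed most in size among the rises, at 3.01 in KO and 1.14 in WT, and the test of that difference missed the threshold (log2 1.88, SE 0.59, edgeR adjusted p = 0.877).

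At 264 h after the first dose fewer genes were called. In the KO clones (2 Aza and 4 DMSO libraries) 90 genes were called (0.503%), 69 up and 21 down. The 72 h difference minus the 264 h difference was called for 2984 genes (16.7%), 1582 of them higher and 1402 lower at 72 h, and for 1919 without the A12 Aza library. Of the agreeing and called genes, 17 rises and 2 falls were also called at 264 h with the same sign, and 156 rises and 87 falls were called for the difference between times. Their median at 264 h was 0.17 for rises and -0.08 for falls. As the genes were chosen by their 72 h values, smaller medians at 264 h are partly built in. CEBPE was still called at 264 h (log2 1.49, edgeR adjusted p = 0.00277), as were HDC (1.78, 2.96e-08), PRG2 (2.58, 0.00210) and PKLR (2.40, 0.000915). Among the falls EPHA5 was still called (log2 -0.70, adjusted p = 0.00665). COL23A1, CUX1 and HDAC4 were at 0.03, -0.01 and -0.04. In the hemoglobin list 6 genes were called at 264 h, among them HBE1, the embryonic beta-like globin, at log2 4.10 against 2.32 at 72 h. HBE1 was at 2.04 CPM in F4 and 2.79 CPM in A12 with Aza at 72 h, and at 0.544 CPM in F4, 0.475 CPM in A12 of batch 1 and 0.397 CPM in A12 of batch 2 with DMSO. Its 72 h call was lost without the A12 vehicle library of batch 1 (adjusted p = 0.0717) and with the failed library.

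**Figure D5:**
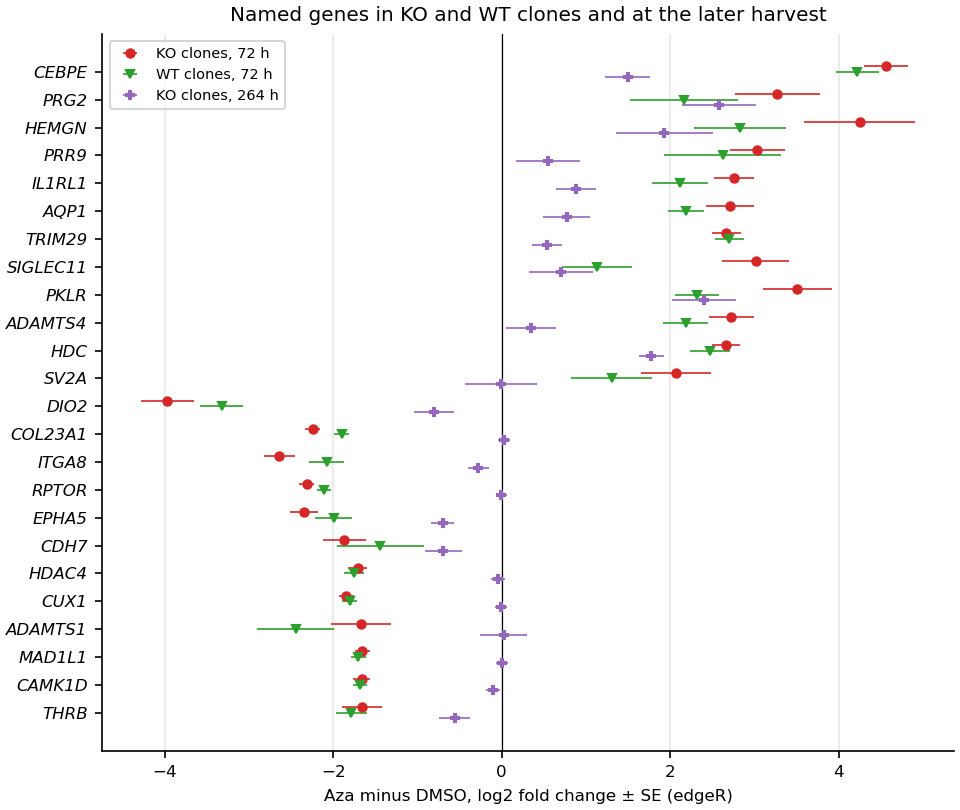
Log2 fold change ± SE of Aza against DMSO from edgeR for the 24 named genes in KO clones at 72 h (red), WT clones at 72 h (green) and KO clones at 264 h (purple). The 72 h values of KO and WT lie on the same side of 0 for every gene shown, while at 264 h COL23A1, CUX1 and HDAC4 lie at 0.03, -0.01 and -0.04.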

How the data were processed

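Poly(A) RNA was sequenced with a stranded kit. The deposited values are whole-number counts per gene: per the file headers, the authors ran featureCounts 1.6.2 on read pairs against GENCODE release 19 exons, with no strand option, so overlapping genes of opposite strands cannot be told apart. The hg19 (GRCh37) build, STAR 2.6.1d, cutadapt, FastQC and DESeq2 are named per the submitters' processing notes. Gene IDs gave symbols to 39538 of 57773 genes from a table of names and to 12800 from GENCODE release 29.

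Library sizes were scaled by TMM in edgeR 4.0.16 (R 4.3.3) to give CPM and, with a prior count of 2, log2 CPM. Genes were filtered with filterByExpr and tested with edgeR's quasi-likelihood test (robust) in 15 KO libraries, with terms for clone, batch and condition, which left 7 residual degrees of freedom. Adjusted p-values are Benjamini-Hochberg values over all genes tested, called under 0.05. The KO minus WT difference was fitted in 19 libraries harvested at 72 h and 264 h. DESeq2 1.42.0 and limma 3.58.1 (voom) served as alternatives. The scripts were tested on simulated counts. Intervals and floors (3 counts) cover counting error only.

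The clone pairs libraries, since it names the same cells. F4 minus A12 correlated at 0.552 to 0.664 between conditions (21 pairs of conditions, 3000 variable genes). Libraries of a group differed beyond sampling noise, with a chi-square per degree of freedom of 16.0 to 57.2 over 4 pairs. Genes named are the 12 rises and 12 falls with the largest smallest difference over 3 pairs among called, agreeing coding genes of at least 1 CPM; TET2, DNMT1, DNMT3A, DNMT3B and the GM-CSF receptor; genes called between clones; and, within 35 lists (797 of 819 memberships matched, 701 tested), members taken mostly from the 4 with the largest called change. KIT, FCER1A and ITGAM were chosen after their values were seen. UHRF1 is not analysed here, and some results are not reported here. Members and lists were chosen with earlier results of these data known, and no set test was made.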

Additional observations from a re-analysis of the deposited data

Results flagged for a closer look

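The fitted response of TNFRSF25, a death receptor, differed between the clones by -1.08 on the log2 scale (F4 minus A12, edgeR interaction test). The test set the clone difference with Aza at 72 h against that over all other KO conditions.

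Of the 24 named genes, 21 differed between 72 h and 264 h in an edgeR test of the response. The value is the 72 h difference minus the 264 h difference on the log2 scale. Among the rises of granulocyte and mast cell genes it was 3.07 for CEBPE, 1.88 for IL1RL1 and 0.88 for HDC. It was 1.94 for AQP1 of the red cell membrane, 2.49 for PRR9, 2.13 for TRIM29, 2.31 for SIGLEC11, 2.38 for ADAMTS4 and 2.08 for SV2A. PRG2, HEMGN and PKLR were not called for this difference. All 24 genes were chosen by their 72 h difference, which is part of this value, so many were bound to be called. Over all 17900 genes tested, 2984 (16.7%) were called.

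Among the falls the 72 h difference minus the 264 h difference was -3.16 for DIO2 and -1.10 for THRB, of thyroid hormone action. It was -2.27 for COL23A1, -2.36 for ITGA8, -1.64 for EPHA5, -1.17 for CDH7 and -1.70 for ADAMTS1, of adhesion and matrix. For RPTOR it was -2.31, for HDAC4 -1.67, for CUX1 -1.83, for MAD1L1 -1.65 and for CAMK1D -1.56.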

How the results depend on the processing

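The count of genes called between Aza and DMSO (4361) was 1953 in the 5 libraries alone, 2606 with no batch term, 1651 with no replicate block (no clone term), 1628 with the failed library, and 2722 to 4255 with 1 library left out. The F4 minus A12 count (1) was 2 with DESeq2 size factors, 19 with no filter, 6 with DESeq2 and 0 with no batch term. It was 2 and 9 without an A12 vehicle library. This difference could not be fitted without the F4 Aza or the A12 Aza library. The fit without the F4 vehicle library was not run. The KO minus WT count (0) was 8 with no filter, 1 in batch 1 alone and 0 to 195 with 1 library left out. The 72 h minus 264 h count (2984) was 702 with no replicate block, 846 with no batch term and 1919 to 3555 with 1 library left out. The count agreeing in all pairs (374) was 1207 at 1.5-fold, 39 at 4-fold, 593 with no filter, 248 with the failed vehicle as a further pair, and 469 to 807 without a vehicle library. With the failed library TET2 (0.0201), DNMT1 (0.0312), DNMT3A (0.0277) and EPRS1 (0.00639), a tRNA synthetase, changed sign. Some settings also hold fewer samples or genes, and the cause of these changes was not tested. The named rises kept sign and call in 178 of 180 values and the falls in 175 of 180. Of 1661 values for 111 list genes, 244 lost their call. Genes under about 3 counts a library cannot be compared at this depth.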

Other observations

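Other coding genes that rose at least 2-fold in all 3 pairs and were called, chosen here after their values were seen, include genes of endothelium. NOSTRIN, a regulator of nitric oxide synthase traffic, was at 37.9 CPM in F4 and 41.9 CPM in A12 with Aza, and at 9.18 CPM in F4, 13.2 CPM in A12 of batch 1 and 12.3 CPM in A12 of batch 2 with DMSO (log2 1.74, SE 0.11, edgeR adjusted p = 9.63e-13). RASIP1, needed for vessel lumen formation, was at 9.99 and 5.05 CPM with Aza and at 1.66 to 3.65 CPM with DMSO (log2 2.08, adjusted p = 4.02e-08). ACVRL1, a BMP receptor of endothelium, was at 3.50 and 3.00 CPM with Aza and at 0.928 to 1.07 CPM with DMSO (log2 1.75, adjusted p = 6.12e-05). At 264 h these genes were at -0.05, -0.04 and -0.34, none of them called. GBP4, an interferon-inducible GTPase, was at 125 CPM in F4 and 144 CPM in A12 with Aza, and at 31.5 CPM in F4, 42.6 CPM in A12 of batch 1 and 35.3 CPM in A12 of batch 2 with DMSO (log2 1.80, SE 0.12, adjusted p = 9.59e-09). SLFN14, a ribosome-associated endonuclease of platelets and red cells, was at 9.37 and 14.3 CPM with Aza and at 2.24 to 3.21 CPM with DMSO (log2 2.16, adjusted p = 1.59e-10). SMAD7, an inhibitor of TGF-beta signalling, was at 8.80 and 9.71 CPM with Aza and at 2.68 to 3.04 CPM with DMSO (log2 1.55, adjusted p = 1.44e-05). FGFR3, a fibroblast growth factor receptor, and CD36, a scavenger receptor of erythroid precursors and platelets, rose by log2 1.69 and 1.24 and were also called at 264 h, at 1.05 and 1.15.

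Falls chosen in the same way include further long genes. MSI2, an RNA-binding protein of blood stem cells that spans 429 kb, was at 61.8 CPM in F4 and 68.5 CPM in A12 with Aza, and at 137 CPM in F4, 173 CPM in A12 of batch 1 and 167 CPM in A12 of batch 2 with DMSO (log2 -1.33, SE 0.07, edgeR adjusted p = 3.43e-14). ANKRD11, a chromatin regulator of 223 kb, was at 56.8 and 54.5 CPM with Aza and at 131 to 151 CPM with DMSO (log2 -1.34, adjusted p = 1.06e-13). SMYD3, a lysine methyltransferase of 758 kb, was at 68.4 and 63.1 CPM with Aza and at 141 to 162 CPM with DMSO (log2 -1.11, adjusted p = 2.66e-10). PRKCA, protein kinase C alpha, was at 17.3 and 19.6 CPM with Aza and at 35 to 43.5 CPM with DMSO (log2 -1.10, adjusted p = 1.28e-10), and its call was lost with the failed library, at -0.77. At 264 h MSI2, ANKRD11, SMYD3 and PRKCA were at -0.04, -0.02, -0.11 and -0.02, none of them called.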
